A study of Mus musculus with 6 samples.

Results

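The 10 genes described here are interferon-inducible GTPases of the mouse, the guanylate-binding protein genes Gbp2, Gbp3, Gbp5, Gbp6, Gbp7 and Gbp9 and the immunity-related GTPase genes Iigp1, Irgm1, Irgm2 and Igtp. They were taken by their gene symbols from the 54532 genes of a hippocampal RNA-seq table, and each symbol matched 1 gene. The libraries came from the hippocampus of 3 wildtype (WT) mice and 3 TG mice, named WT1 to WT3 and TG1 to TG3. TG mice are knock-in animals with the changes G82R and L85P in Slc1a2, the gene of the astrocytic glutamate transporter GLT-1, introduced by CRISPR/Cas9 into the endogenous gene of C57BL/6N mice, with founders bred to C57BL/6 mice and WT littermates as controls, so every cell type that transcribes the gene carries the changes. No treatment other than genotype is named, and the study used males and females of both genotypes. The age and zygosity of the sequenced animals, and the sex of each, are not given in the sources used here.

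Guanylate-binding proteins and immunity-related GTPases are made in little amount in resting tissue and in large amount once interferon gamma or type I interferon reaches a cell. Interferon receptors activate STAT transcription factors through Janus kinases, and these factors, alone or with interferon regulatory factors, bind the gamma-activated site (GAS) and the interferon-stimulated response element (ISRE). The GTPases then gather on membranes, including vacuoles that hold microbes, and in the brain microglia, astrocytes and endothelial cells can all produce them.

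The sequences at the starts of these genes are shown first, because start regions are where STATs and interferon regulatory factors are known to bind. RefSeq gave a start region, 250 bases before to 50 bases after the start in GRCm38.p6, for 7 of the 10 genes, namely Gbp2, Gbp3, Gbp5, Gbp7, Irgm1, Irgm2 and Igtp. Gbp3 has 2 start regions, and the second held neither element. The RefSeq start can differ from the start of the gene in the RNA-seq table. The elements shown for Gbp2, Gbp5, Irgm1 and Irgm2 lie before a RefSeq start but inside the bounds of these genes in that table. Each stretch is printed in the direction of its gene from 10 bases before the first element to 10 bases after the last, with the elements in capitals. For Gbp5, a further GAS match 245 bases before the start lies outside the stretch shown.
Gbp5, chr3:142496759-142496900, plus strand: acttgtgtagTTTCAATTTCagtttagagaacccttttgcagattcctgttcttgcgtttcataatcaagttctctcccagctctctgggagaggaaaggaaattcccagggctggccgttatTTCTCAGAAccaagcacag
Gbp7, chr3:142530220-142530302, plus strand: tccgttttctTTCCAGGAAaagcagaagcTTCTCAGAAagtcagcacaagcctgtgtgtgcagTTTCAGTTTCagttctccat
Gbp3, chr3:142559989-142560024, plus strand: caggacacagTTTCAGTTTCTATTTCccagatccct
Gbp2, chr3:142620594-142620623, plus strand: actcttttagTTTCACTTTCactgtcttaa
Irgm1, chr11:48871425-48871460, minus strand: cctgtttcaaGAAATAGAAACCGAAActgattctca
Igtp, chr11:58199501-58199541, plus strand: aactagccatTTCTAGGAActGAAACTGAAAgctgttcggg
Irgm2, chr11:58214892-58214932, plus strand: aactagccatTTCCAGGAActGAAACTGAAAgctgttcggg

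The ISRE was searched as GAAANNGAAA and the GAS as TTCNNNGAA on both strands, and the ends of these patterns can overlap. An ISRE match was found in 7 of the 7 genes with a start region, compared with 3.44% of all 32851 RefSeq start regions searched. A GAS match was found in 4 of the 7, Gbp5, Gbp7, Igtp and Irgm2, compared with 8.3% of all start regions, and both elements together occurred in 0.454% of all start regions. The 4 Gbp genes carried the ISRE in the reverse orientation, read as TTTCNNTTTC along the gene, whereas Irgm1, Irgm2 and Igtp carried it in the forward orientation. In Gbp3 and Irgm1, 2 ISRE matches overlapped and formed a longer repeat. Igtp and Irgm2 had the same arrangement, a GAS followed after 2 bases by an ISRE. The longest run shared by these 2 start regions was 61 bases, and 68.1% of 270 bases were identical when they were aligned on the GAS. That arrangement, chosen for counting after it was seen, occurred in 5 of the 32851 start regions, those of Igtp, Irgm2, Tgtp1, Tgtp2 and Gm12185, all immunity-related GTPase genes. A match describes letters in the sequence and does not show that a factor was bound in these mice.

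**Figure D1:**
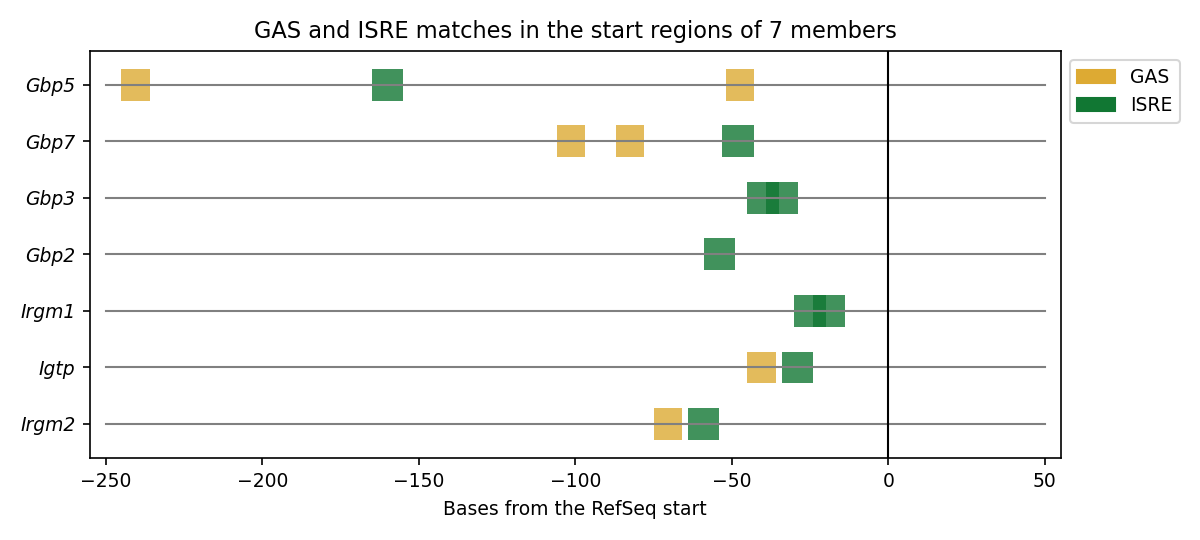
Positions of GAS (yellow) and ISRE (green) matches along the start regions of 7 members, in bases from the RefSeq start, with the start as a vertical line. Every gene holds an ISRE in the region before its RefSeq start, darker where 2 matches overlap. The paired GAS and ISRE of Igtp and Irgm2 start 45 and 75 bases before the RefSeq start.

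The libraries held 16081281 to 18751057 reads on genes, and 3 reads on a gene of 1 kb corresponded to 0.160 to 0.190 FPKM, the unit of the table, which scales the reads of a gene to its length and to the size of the library. The genes are scarce in this tissue, so their values rest on few reads. Between 27 and 278 reads per library stood behind each member except Gbp6, which had 3 to 24. Slc1a2 itself had 177 to 202 FPKM in WT and 207 to 222 FPKM in TG libraries, which does not check the genotype, because the changes alter 2 codons and a gene-level value does not show them. Hippocampal markers were present in every library, with C1ql2, a gene of dentate granule cells, at 48.0 to 66.8 FPKM. TG1 and TG2 stood apart from the other libraries in choroid plexus genes. The summed FPKM of 9 choroid plexus markers was 109, 80.9 and 94.1 in WT1 to WT3, 1331 in TG1, 4163 in TG2 and 90.7 in TG3. For Ttr, the most abundant of them, it was 49.8 to 73.0 FPKM in WT libraries, 1168 in TG1, 3705 in TG2 and 57.7 in TG3. For this reason the members are also compared in TG3 alone, the TG library whose sum of these markers is at the WT level. By single markers, Kl (3.67 FPKM, WT up to 3.19) and Kcnj13 (0.610, WT up to 0.511) lay above WT in TG3. Folr1 (0.217 FPKM, WT from 0.279) lay below. The members are also compared in a fit of all libraries with a choroid plexus score, the mean log2(FPKM + 0.1) of the 9 markers, as a covariate.

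Of the 10 members, 8 had a higher FPKM in every TG library than in every WT library, namely Gbp2, Gbp3, Gbp5, Gbp9, Iigp1, Irgm1, Irgm2 and Igtp. Groups lay apart in this way in 6.35% of all 20952 genes tested. Levels are FPKM throughout, and differences are log2 fold changes of FPKM + 0.1 from limma, TG minus WT, which understate the change of low genes. The same 8 genes passed an unadjusted p of 0.05 with higher values in TG mice, as did 3.13% of all genes tested, and 2.78% passed it with lower values. None of the members passed Benjamini-Hochberg adjustment over all genes (limma, adjusted p = 0.786 for the 8 genes), and 2 of the 20952 genes, or 0.00955%, did. With limma-voom on the recovered reads, 8 members again passed the unadjusted limit and none passed adjustment. The median log2 fold change of the 9 members tested was 0.82, with a range of 0.57 to 1.18, compared with a median of -0.002 over all genes tested. Because the genes were chosen with earlier results of these data known, these counts are descriptions of the list.

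**Figure D2:**
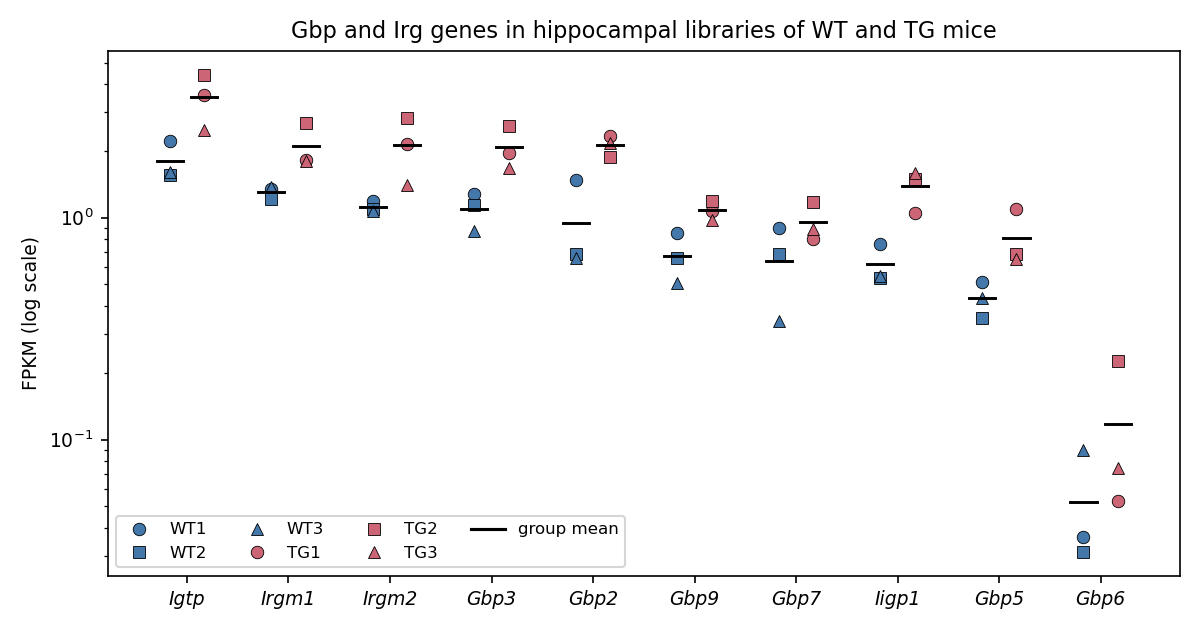
FPKM on a log scale of each of the 10 members in the 3 WT libraries (blue) and the 3 TG libraries (red), with the symbol giving the replicate number and the black line the group mean, in order of the WT mean. The red points lie above the blue points for 8 genes and overlap with them for Gbp7 and Gbp6.

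In WT hippocampus the regulatory Irg genes were the most abundant members. Igtp stood highest with 1.80 FPKM, followed by Irgm1 with 1.31 and Irgm2 with 1.12 FPKM, and the ranges of these 3 genes over the WT libraries did not overlap. Irgm2 was followed by Gbp3 (1.09 FPKM), Gbp2 (0.943), Gbp9 (0.674), Gbp7 (0.641) and Iigp1 (0.615), each of which overlapped in range with the gene before it. Gbp5 came next with 0.434 FPKM, below the range of Iigp1, and Gbp6 was the lowest member with 0.0524 FPKM. In TG hippocampus Igtp was again the highest by its mean and Gbp6 the lowest. The TG means of Gbp2 (2.13 FPKM), Irgm2 (2.13), Irgm1 (2.10) and Gbp3 (2.08) were nearly equal, and their ranges overlapped. In WT mice the mean of Gbp2 had been below those of Irgm1, Irgm2 and Gbp3.

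Gbp2, Gbp3, Gbp5 and Gbp7 lie in a cluster on chromosome 3. Gbp2 (ENSMUSG00000028270, chr3:142620602-142638008, plus strand), which encodes a prenylated guanylate-binding protein and is widely used as a marker of reactive astrocytes, had 1.48, 0.689 and 0.658 FPKM in WT1 to WT3, against 2.34, 1.88 and 2.18 FPKM in TG1 to TG3. The 3 TG libraries were close together, and the highest WT library, WT1, lay nearer to the lowest of them than to the other WT libraries. The means were 0.943 ± 0.468 FPKM in WT and 2.13 ± 0.229 FPKM in TG mice (SD, n = 3 each). The log2 fold change of 1.18 (standard error 0.29, 95% interval 0.49 to 1.87) was the largest among the members, with an unadjusted p of 0.00455. In TG3 alone it was 1.21 (unadjusted p = 0.110).

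Gbp3 (ENSMUSG00000028268, chr3:142560026-142573209, plus strand), a close relative of Gbp7 within this cluster, had 1.28, 1.14 and 0.867 FPKM in WT1 to WT3, against 1.95, 2.60 and 1.68 FPKM in TG1 to TG3. TG2 was the highest library and the lowest TG library, TG3, still exceeded each WT library. Its log2 fold change was 0.86 (standard error 0.21, 95% interval 0.37 to 1.35, unadjusted p = 0.00422), against 0.59 in TG3 alone (unadjusted p = 0.127) and 0.52 with the choroid plexus covariate (unadjusted p = 0.0741).

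Gbp5 (ENSMUSG00000105504, chr3:142493978-142522344, plus strand), whose prenylated product takes part in inflammasome responses, had 0.513, 0.354 and 0.435 FPKM in WT1 to WT3, against 1.09, 0.689 and 0.651 FPKM in TG1 to TG3. The groups did not overlap, and TG1 stood above both other TG libraries. The log2 fold change was 0.75 (standard error 0.26, 95% interval 0.13 to 1.37, unadjusted p = 0.0236), and the p was above 0.05 when 1 library was left out, namely WT2 (unadjusted p = 0.0740), WT3 (unadjusted p = 0.0545) or TG1 (unadjusted p = 0.0692). It was also above 0.05 in TG3 alone (log2 fold change 0.50, unadjusted p = 0.173) and with the choroid plexus covariate (0.63, unadjusted p = 0.150).

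Gbp7 (ENSMUSG00000040253, chr3:142530342-142550149, plus strand) was the tested member whose groups overlapped. It had 0.896, 0.684 and 0.343 FPKM in WT1 to WT3, against 0.799, 1.18 and 0.888 FPKM in TG1 to TG3, so that WT1 lay above TG1 and TG3. The log2 fold change was 0.57 (standard error 0.33, 95% interval -0.19 to 1.34, unadjusted p = 0.121), an interval that holds both no difference and the values of the other members. Without WT3, its lowest library, the value was 0.24 (unadjusted p = 0.362), and with the choroid plexus covariate it was 0.35 (unadjusted p = 0.481). Of the 50-base stretches in its transcripts, 12.7% also occur in another gene, most of them in Gm43802.

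On chromosome 5, Gbp9 (ENSMUSG00000029298, chr5:105077630-105139539, minus strand) had 0.857, 0.658 and 0.506 FPKM in WT1 to WT3, against 1.08, 1.19 and 0.974 FPKM in TG1 to TG3. All 3 TG libraries lay within a narrow range above the WT libraries. The log2 fold change of 0.63 (standard error 0.22, 95% interval 0.11 to 1.14) had an unadjusted p of 0.0232, and the p was above 0.05 without WT2 (unadjusted p = 0.0595), WT3 (unadjusted p = 0.0642), TG1 (unadjusted p = 0.0626) or TG2 (unadjusted p = 0.0775). In TG3 alone the log2 fold change was 0.50 (unadjusted p = 0.251), and with the choroid plexus covariate 0.45 (unadjusted p = 0.192). Gbp9 overlaps Gbp4 and Gbp8 in the annotation, and how reads in shared positions were counted is not given in the sources used here.

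Gbp6 (ENSMUSG00000104713, chr5:105270702-105293698, minus strand) was close to the detection limit. It had 4, 3 and 10 reads in WT1 to WT3, against 5, 24 and 8 reads in TG1 to TG3, which is 0.0363, 0.0312 and 0.0897 FPKM against 0.0531, 0.225 and 0.0744 FPKM. TG2 alone exceeded the highest WT library. With a mean of 0.0849 FPKM it was below the minimum of 0.1 for testing, and 70.7% of its 50-base stretches also occur in another gene, mainly Gm43302 and Gbp10, so that its few reads may in part belong to those genes.

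Iigp1 (ENSMUSG00000054072, chromosome 18), an effector GTPase that loads onto microbial vacuoles, had 0.763, 0.536 and 0.548 FPKM in WT1 to WT3, against 1.05, 1.50 and 1.60 FPKM in TG1 to TG3. Here TG3 was the highest library and TG1 the lowest of the TG group. The means were 0.615 ± 0.128 FPKM in WT and 1.38 ± 0.290 FPKM in TG mice (SD, n = 3 each). Its log2 fold change of 1.05 (standard error 0.23, 95% interval 0.52 to 1.58) had the smallest unadjusted p of the members, 0.00213.

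Irgm1, Irgm2 and Igtp encode the regulatory Irg proteins, which sit on cellular membranes and keep the effector GTPases from acting there, and all 3 lie on chromosome 11. Irgm1 (ENSMUSG00000046879, chr11:48861968-48871683, minus strand), known for its part in autophagy, had 1.34, 1.21 and 1.37 FPKM in WT1 to WT3, against 1.82, 2.67 and 1.80 FPKM in TG1 to TG3. The WT libraries were tight, TG1 and TG3 lay together above them and TG2 was highest. The log2 fold change was 0.62 (standard error 0.18, 95% interval 0.20 to 1.04, unadjusted p = 0.0101). It was 0.43 in TG3 alone (unadjusted p = 0.0881) and 0.36 with the choroid plexus covariate (unadjusted p = 0.157).

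Irgm2 (ENSMUSG00000069874, chr11:58199618-58222782, plus strand), a regulatory protein of the Golgi, had 1.19, 1.09 and 1.07 FPKM in WT1 to WT3, against 2.14, 2.83 and 1.41 FPKM in TG1 to TG3. The TG libraries spread more widely than the WT libraries, with TG3 nearest to WT. Its log2 fold change was 0.82 (standard error 0.24, 95% interval 0.26 to 1.38, unadjusted p = 0.0105), and it fell to 0.31 in TG3 alone (unadjusted p = 0.188) and to 0.29 with the choroid plexus covariate (unadjusted p = 0.165).

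Igtp (ENSMUSG00000078853, chr11:58199556-58207591, plus strand), a regulatory protein of the endoplasmic reticulum, had 2.22, 1.56 and 1.61 FPKM in WT1 to WT3, against 3.56, 4.41 and 2.49 FPKM in TG1 to TG3. The order of the TG libraries was that of Irgm2, and TG3 lay just above WT1. The means were 1.80 ± 0.367 FPKM in WT and 3.49 ± 0.963 FPKM in TG mice (SD, n = 3 each), with a log2 fold change of 0.90 (standard error 0.23, 95% interval 0.36 to 1.44). Its unadjusted p was 0.00524. The value was 0.47 in TG3 alone (unadjusted p = 0.181) and 0.44 with the choroid plexus covariate (unadjusted p = 0.0805). Igtp and Irgm2 overlap on the same strand, and 11.8% of the 50-base stretches of Igtp transcripts occur in Irgm2, so the values of these 2 genes are not fully separate.

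The TG libraries differed among themselves in a way that varied from gene to gene. Relative to the WT mean, the median of the 9 tested members was 0.28, -0.10 and -0.13 on the log2 scale in WT1 to WT3, against 0.80, 1.01 and 0.50 in TG1 to TG3, with an SD within groups of 0.246. All 3 TG libraries lay above all 3 WT libraries by this median, and WT1 was the highest WT library. For the 3 genes of chromosome 11 the median was 0.88, 1.27 and 0.43 in TG1 to TG3, and for the 4 Gbp genes of chromosome 3 it was 0.99, 0.94 and 0.55. The Irg regulators were thus highest in TG2, as were Gbp3, Gbp6, Gbp7 and Gbp9, whereas Gbp2 and Gbp5 were highest in TG1 and Iigp1 in TG3. Taken 1 library at a time, 8 of the 9 tested members in TG1, 9 in TG2 and 8 in TG3 exceeded every WT library, a position that 27.7%, 23.6% and 23.3% of all genes tested held in these libraries. Gbp7 was the exception in TG1 and in TG3.

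**Figure D3:**
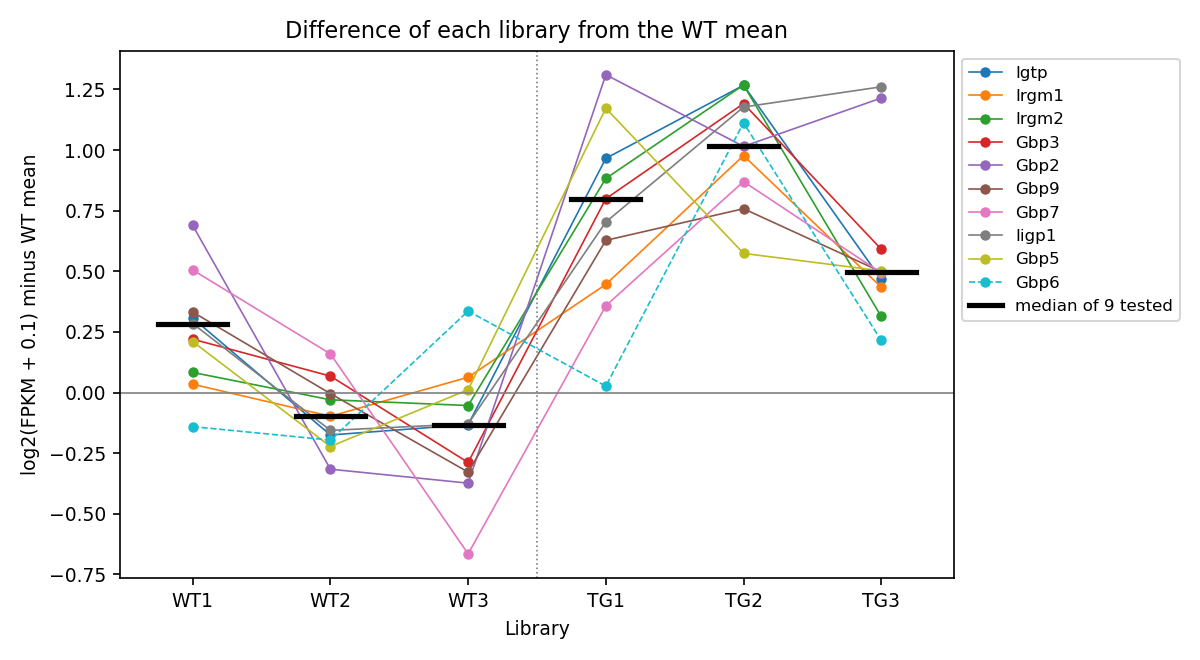
Difference of each library from the WT mean in log2(FPKM + 0.1) for the 10 members, with 1 line per gene and a black bar for the median of the 9 tested members. The bars stand at 0.28, -0.10 and -0.13 in WT1 to WT3, and at 0.80, 1.01 and 0.50 in TG1 to TG3, and the dashed line of Gbp6 rests on 3 to 24 reads.

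The summed FPKM of the 10 members was 10.6, 7.96 and 7.50 in WT1 to WT3, against 15.9, 19.2 and 13.7 in TG1 to TG3. In TG1 and TG2 this went together with the choroid plexus markers given above. In TG3 the members were above WT while the choroid plexus markers summed to 90.7 FPKM, within the WT range of that sum. When TG3 alone was compared with the WT libraries, assuming that it varied as they do, the median log2 fold change was 0.50 and 1 of the 9 members, Iigp1, was higher at an unadjusted p under 0.05. With the choroid plexus score as a covariate the median was 0.45 and 2 members, Gbp2 and Iigp1, passed that limit. The score was 3.64 in TG1 and 5.17 in TG2, against 0.471 to 0.910 in the WT libraries and TG3. It is thus largely tied to genotype, and the covariate fit is not a check separate from TG3 alone. In bulk tissue, fewer or more cells of a type and less or more RNA per cell cannot be told apart.

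Markers of cell types that can express these GTPases were examined in the same libraries. Microglial markers, 10 genes led by C1qa, summed to 139 to 155 FPKM in WT and to 127 in TG1, 173 in TG2 and 173 in TG3, so TG1 combined high member values with the lowest microglial sum. Endothelial markers, 8 genes with Ly6c1 at the top, summed to 74.6 to 86.9 FPKM in WT and 80.8 to 84.0 in TG libraries, and the 7 astrocyte markers, led by Aldoc, to 493 to 567 and 492 to 520 FPKM. Sums of 6 border macrophage markers, led by Pf4, were 2.80 to 4.37 FPKM in WT and 3.88 to 4.66 in TG libraries and overlapped.

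Markers of T and NK cells, which make interferon gamma, were near the detection limit. Their sum over 12 genes was 0.798 to 0.851 FPKM in WT libraries and 1.71, 2.63 and 3.53 FPKM in TG1 to TG3, above WT in each TG library. Not every gene of the list went with the sum. Ncr1 was at 0 in all 6 libraries, and Klrb1c had 2 reads in WT2 and 0 in every other library. Gzma had 2, 0 and 1 reads in WT1 to WT3, against 0, 1 and 1 reads in TG1 to TG3. Cd3e had 0 to 6 reads. Trbc2, a T-cell receptor constant gene and the most abundant of the list, had 2, 6 and 5 reads in WT1 to WT3, against 10, 12 and 26 reads in TG1 to TG3. Its 0.913, 0.967 and 2.08 FPKM in TG1 to TG3 made up a large part of the sum. The order of this sum among the TG libraries, lowest in TG1 and highest in TG3, was that of Iigp1 and differed from that of the other 9 members. The part of T and NK cells in the values of the members was not tested. Sums of 5 neuronal markers (led by Slc17a7), 6 meningeal markers (led by Dcn) and 5 blood markers (led by Hbb-bs) overlapped between the groups.

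**Figure D4:**
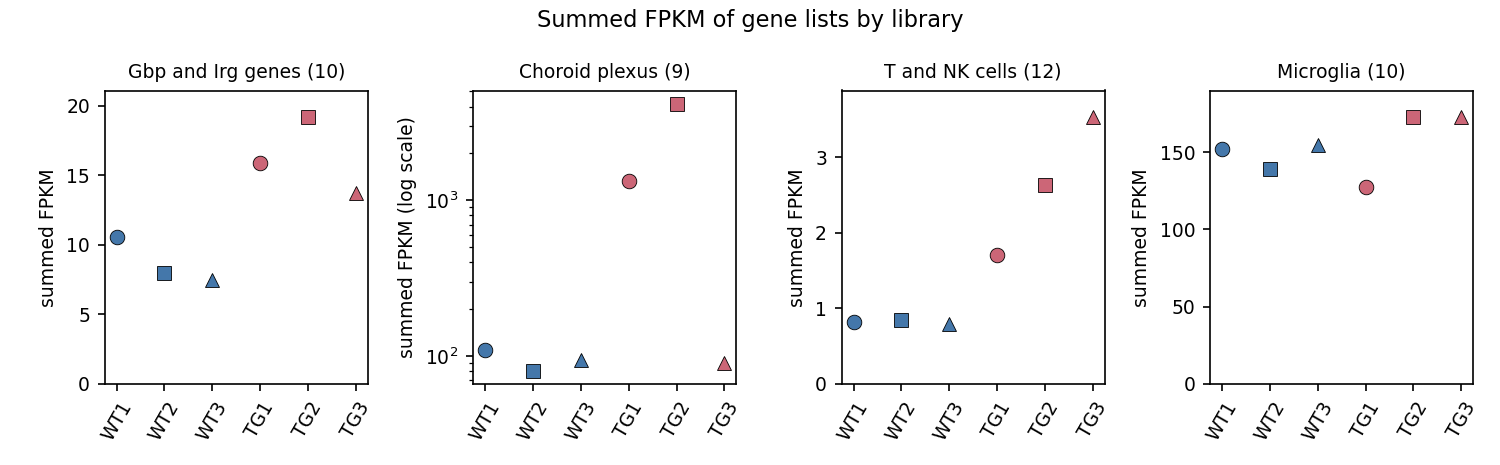
Summed FPKM per library of the 10 members and of markers of choroid plexus (log scale), T and NK cells and microglia, in WT (blue) and TG (red) libraries. The members are above WT in all 3 TG libraries, the choroid plexus sum in TG1 and TG2 but not in TG3, and the microglial sum of TG1 is the lowest of the 6.

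Of 18 other genes of the Gbp, Irg, Gvin and Mx families, most of them interferon-inducible, 9 had a mean of at least 0.1 FPKM in each group, and 3 of these, Tgtp1, Tgtp2 and Ifi47, were higher at the unadjusted limit of 0.05, with none lower and none past adjustment. At this minimum, 2.93% of 19475 genes were higher and 2.57% lower. The median log2 fold change of the 9 was 0.77. Tgtp1 and Tgtp2, paralogous effector Irg genes, had log2 fold changes of 1.65 (standard error 0.51, unadjusted p = 0.0140) and 1.28 (standard error 0.36, unadjusted p = 0.00856). Since 79.4% of the 50-base stretches of Tgtp1 occur in Tgtp2, their reads were also summed, to 23, 10 and 19 in WT1 to WT3, against 67, 103 and 44 in TG1 to TG3. Each TG library held more of these reads than any WT library.

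Ifi47, another immunity-related GTPase gene, had 0.525, 0.325 and 0.281 FPKM in WT1 to WT3, against 0.639, 0.812 and 0.806 in TG1 to TG3, a log2 fold change of 0.86 (unadjusted p = 0.0132) with groups that did not overlap. Gm4951, a relative of Iigp1, had 0.123, 0.0936 and 0.0404 FPKM in WT1 to WT3, against 0.311, 0.380 and 0.188 in TG1 to TG3 (log2 fold change 1.08). As its WT mean was below 0.1, it reached the filter through the TG libraries, as did Gbp8 (log2 fold change 0.21), and neither is in the counts above. The log2 fold changes of Gbp4 (0.82), 9930111J21Rik1 (0.77), Gbp11 (0.18), 9930111J21Rik2 (0.14) and Mx2 (0.11) did not pass the unadjusted limit. Irgq, a member of the family that interferon is not known to induce, was by far the most abundant, with 17.3 to 20.7 FPKM in WT and higher values up to 25.6 FPKM in TG libraries, and its log2 fold change was 0.23 (unadjusted p = 0.0624).

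The genes that act upstream of the members were then compared. Of 9 interferon genes, 8 had no read in any library, and Ifng had 1 read, in TG2. A count of 0 allows up to 3 reads per library, which is 0.124 to 0.146 FPKM for Ifng and 0.214 to 0.253 FPKM for Ifnb1. A difference in interferon transcripts was thus not detectable in these libraries at this depth. By qRT-PCR, a separate measure, the study reported higher Ifng mRNA in the hippocampus of TG mice. Of 7 interferon receptor and Janus kinase genes, none passed the unadjusted limit in either direction, and their median was -0.02. The most abundant was Jak1, with 28.7 to 29.2 FPKM in WT and 25.9 to 30.4 in TG libraries, and the smallest unadjusted p, 0.119, was that of Ifnar2 (log2 fold change 0.25).

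Of 7 interferon transcription factor genes, Irf7, a regulator of type I interferon responses, passed the unadjusted limit with higher values and none with lower values. Over all 19475 genes with at least 0.1 FPKM in each group, 2.93% passed it with higher values. Irf7 had 0.573, 0.443 and 0.410 FPKM in WT1 to WT3, against 0.937, 1.27 and 0.982 FPKM in TG1 to TG3, with a log2 fold change of 1.02 (standard error 0.21, unadjusted p = 0.00193). Stat2 was the most abundant, with a log2 fold change of 0.21. Among 5 feedback inhibitors, Usp18 was higher (log2 fold change 0.77, unadjusted p = 0.0283) and Ptpn2, the most abundant, had a log2 fold change of -0.03.

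Genes of pathways in which the GTPases take part were compared next. Among all 19475 genes with a mean of at least 0.1 FPKM in each group, 2.93% were higher at the unadjusted limit and 2.57% lower. Of 5 genes for prenylation and processing of CaaX proteins, the modification that anchors Gbp2 and Gbp5 to membranes, Icmt was higher (log2 fold change 0.22, unadjusted p = 0.0137) and was also the most abundant, and the median was 0.06. None of 11 autophagy conjugation genes, whose products direct the GTPases to vacuoles, passed the unadjusted limit. Their median was -0.05, with Atg12 having the smallest p (log2 fold change 0.09, unadjusted p = 0.242) and Gabarapl1 the highest level, 235 to 242 FPKM in WT and 227 to 239 in TG libraries. Of 8 inflammasome genes, Gsdmd was higher (log2 fold change 0.50, unadjusted p = 0.0411) and Il18, the most abundant, was lower (log2 fold change -0.32, unadjusted p = 0.0388). Of 16 antiviral effector genes, 14 had a mean of at least 0.1 FPKM in each group, and 6 of these were higher and none lower, with a median log2 fold change of 0.52. They include Rtp4 (log2 fold change 1.14, unadjusted p = 0.00763) and Bst2, the most abundant, with 4.18 to 5.75 FPKM in WT and 8.75, 24.6 and 8.03 FPKM in TG1 to TG3. None of the genes on these lists passed adjustment over all genes (limma, Benjamini-Hochberg, smallest adjusted p = 0.786).

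**Figure D5:**
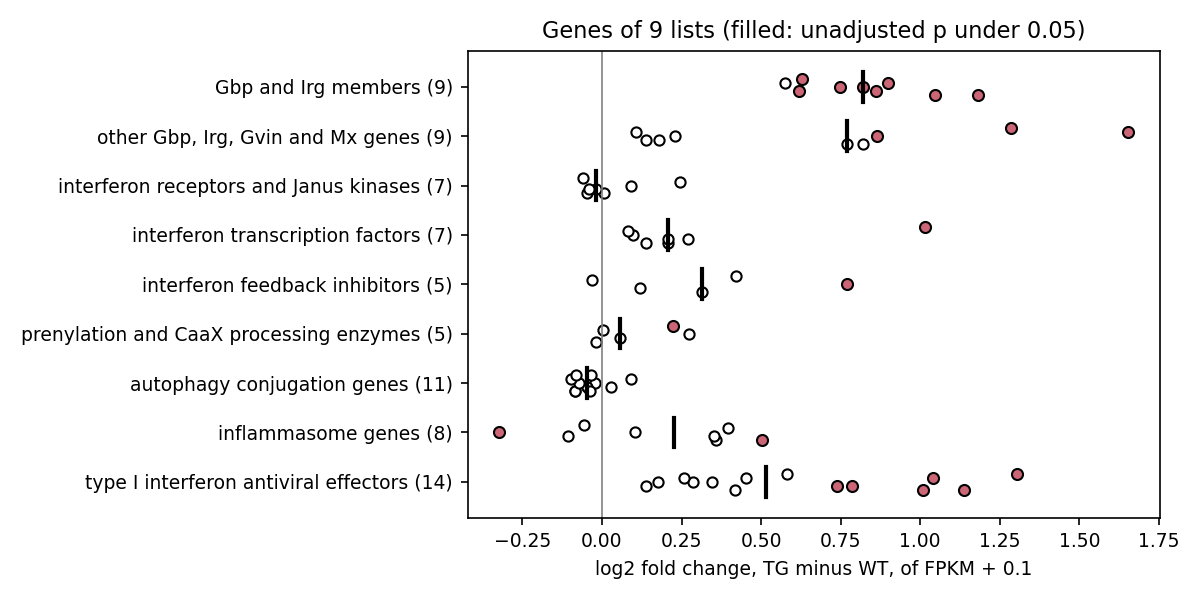
Log2 fold change (TG minus WT, of FPKM + 0.1) of each gene with a mean of at least 0.1 FPKM in each group, in 9 lists, with 1 point per gene, filled where the unadjusted p is under 0.05, and a black line for the median of the list. The medians of the members (0.82), the other Gbp, Irg, Gvin and Mx genes (0.77) and the antiviral effectors (0.52) are the highest, and those of the receptors and kinases (-0.02) and of the autophagy genes (-0.05) are near 0.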

How the data were processed

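Hippocampal RNA of 3 WT and 3 TG mice was measured by RNA-seq on a HiSeq 2500. The authors counted reads per gene with HTSeq v0.6.0 and deposited FPKM, scaled to gene length and library size. The aligner is not given in the sources used here, and the submitters' processing notes name GRCm38 and mm10. Extraction and library kits differ between the labels (RNeasy, SMARTer) and the methods (Trizol, NEBNext), and strand is not stated. Of the gene IDs, 54409 are in GENCODE vM21 (GRCm38) and 53499 have the same start and end there. FPKM times gene length gave whole reads for 100% of values (tolerance 0.05 reads), which gave the depth of each library.

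WT and TG were compared with limma 3.58.1 (R 4.3.3; functions lmFit and eBayes, the latter with a trend) on log2(FPKM + 0.1), for the 20952 of 54532 genes whose mean FPKM reached 0.1, no covariate, Benjamini-Hochberg adjustment and a threshold of 0.05. P-values measure the spread between these libraries, as the labels number mice but state nothing further on them. Start regions are from RefSeq (GRCm38.p6), searched in Python 3.11.15. For shared sequence, all 50-base stretches in the GENCODE vM21 transcripts of a gene were looked up in those of the other genes.

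The members, the lists and the tests were chosen with earlier results of these data known. Named genes were all members, every other listed GTPase that passed the filter, from each other pathway list those with the smallest p and with the highest mean FPKM, and from each marker list that with the highest mean FPKM. Cd3e, Ncr1, Klrb1c, Gzma, Kl, Kcnj13, Folr1 and Gsdmd, and for their floors Ifng and Ifnb1, were named after their values were seen. Alternatives covered the pseudocount, the filter, the scaling, the variance trend, limma-voom, the replicate block, left-out libraries, a choroid plexus covariate and, chosen after seeing the data, a minimum mean of 0.1 FPKM in each group, which the counts over the other lists use. Results of some listed genes are not reported here.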

Additional observations from a re-analysis of the deposited data

How the results depend on the processing

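The direction of the 9 tested members was the same under every alternative run. The median log2 fold change of 0.82 was 0.54 with a pseudocount of 1, 0.50 with TG3 alone and 0.45 with the choroid plexus score as a covariate, and 0.70 to 0.94 when 1 library was left out. The count of 8 members higher at an unadjusted p under 0.05 was 1 with TG3 alone, 2 with the covariate, 5 with a minimum mean FPKM of 1, where only 5 members were tested, and 6 to 8 when 1 library was left out. Iigp1 was past that limit in all 17 of its alternatives, with log2 fold changes of 0.56 to 1.26. The smallest adjusted p of a member ranged from 0.223 to 0.999 (limma, Benjamini-Hochberg). Over all genes, the 656 higher and 582 lower genes at an unadjusted p under 0.05 were 334 and 369 with the covariate. The 2 genes past adjustment were 9 without the variance trend, 1 with either stricter filter, 0 to 6 when 1 library was left out, and 0 with either other pseudocount, no filter, the minimum in each group (chosen after seeing the data), limma-voom, the replicate block, TG3 alone or the covariate. With the replicate block the median was 0.82 and 8 members were higher. Same-numbered WT and TG libraries deviated together with correlations of 0.013, 0.043 and 0.003 across genes, and TG1 correlated best with WT3. Correlations over all genes cannot show whether same-numbered mice shared a litter or a batch, so a pairing by number is not known. Without the filter, Gbp6 had a log2 fold change of 0.45 (limma, unadjusted p = 0.257). Gbp6 and the interferon genes rest on few or no reads, which limits what this depth can show for them.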

Other observations

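The GTPase genes outside the 10 members that were too low to test were chosen here after their values were seen. Of the 5 with at least 10 reads over the 6 libraries, 4 had a higher FPKM in every TG library than in every WT library. So did 7.87% of the 1905 untested genes with that many reads. Gbp6, the member too low to test, overlapped between the groups. The minimum of 10 reads is a total over both groups. Gbp10, F830016B08Rik and Gm12185 reached it only through their TG reads, so the count only describes these genes. Gbp10, which shares 73.3% of its 50-base stretches with Gbp6, had no read in any WT library and 2, 7 and 6 reads in TG1 to TG3. F830016B08Rik, an Irg gene, had 2, 1 and 0 reads in WT1 to WT3 and 9, 14 and 8 reads in TG1 to TG3. Gm12185, whose start region holds the paired GAS and ISRE, had 0, 2 and 3 reads against 5, 6 and 4. Gvin1, a very large inducible GTPase, had 8, 7 and 2 reads against 8, 17 and 11, and 99.2% of its 50-base stretches occur in another gene. WT1 and TG1 held the same 8 reads of Gvin1, which differ in FPKM (0.048 and 0.056) only through library size. For Gm12185, the highest WT library and the lowest TG library held 3 and 4 reads. By contrast Gbp2b had a total of 1 read over the 6 libraries, Irgc1 0 to 3 reads per library, and Mx1, an antiviral GTPase, overlapped between the groups with 2 to 7 reads in each.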
